A study of Mus musculus with 2 samples.

Results

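The T-box factors Tbx1, Tbx2, Tbx3, Tbx4 and Tbx5 were examined in embryonic mouse lung with and without the ETS transcription factors Etv4 and Etv5. The genes were chosen by name, with earlier results of these data known. Each was read from its brightest probe set by the mean of both arrays, among probe sets annotated with exactly 1 gene symbol. All 5 genes had such a probe set, and each had 1, so they make up 5 of the 19938 genes with a value. The study compared wild type lungs at E13.5 with lungs of the same stage labelled as knockout for both Etv4 and Etv5. RNA of 3 samples per group was pooled in equal amounts, and 1 Affymetrix array was hybridised per pool. The title of the knockout sample abbreviates its genotype as CKO, its other labels speak of a double knockout, and no Cre line, strain or deleted part of either gene is given in the sources used here. With 1 array per group there is no measure of error between samples, no test was possible, and every difference below, given on the log2 scale as the knockout value minus the wild type value, compares these 2 pools. Genes whose brighter value reached the median of its array are called measured here, which held for 11045 genes and for all 5 T-box members.

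T-box factors are transcription factors that bind DNA through a shared domain, the T-box, and act in the growth and patterning of many organs. In the embryonic lung, Tbx2, Tbx3, Tbx4 and Tbx5 are known from the mesenchyme, the connective tissue that surrounds the branching airway epithelium, whereas Tbx1 transcripts have been described in the epithelium. Tbx4 and Tbx5 are required for lung bud growth and for expression of Fgf10, the mesenchymal growth factor that draws the buds outward. Tbx2 and Tbx3 act mainly as repressors that keep mesenchymal cells dividing. Etv4 and Etv5 are made in the distal epithelium in response to FGF signals from the mesenchyme, so the comparison asks how genes on either side of this exchange stood when the pair was targeted.

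The deposited values ran from 2.69 to 14.4 over both arrays, with medians of 7.60 in wild type and 7.58 in knockout, a range from which they were taken to be on the log2 scale. The central 95% of measured genes differed by between -0.22 and 0.20, and 27.3% of measured genes had the same value on both arrays to the last digit, with 0 of the 5 T-box members among them. The targeted gene Etv4 stood at 7.59 in wild type and 6.96 in knockout (-0.63), under the array medians, and Etv5 at 11.51 and 11.28 (-0.23). Since the deleted parts are unknown, a probe set may lie outside them and then checks nothing. Sex-linked genes differed between the pools. The X-silencing RNA Xist was at 12.34 and 5.74, and the Y-linked gene Uty at 8.99 and 9.64. The part of this sex difference in any value below was not tested.

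All 5 T-box members had lower values in the knockout pool, by small amounts that ranged from -0.28 to -0.021 with a median of -0.068. For comparison, 47.0% of all measured genes were lower by any amount, 25.7% were higher and 27.3% were equal, as no member was. The median over all measured genes was 0.00. With a stricter filter at the 75th percentile of the arrays, which all 5 members passed, it was -0.0075. At 1.2-fold, the size used here to call a gene, 1 member was lower and 0 were higher. This size was chosen with earlier results of these data known. In the same arrays 1.53% of measured genes were lower by this size or more and 1.39% were higher by it. At 1.5-fold 0 members were called in either direction, beside 0.163% of measured genes lower and 0.172% higher. At 2-fold 0 members were called, beside 0.0362% lower and 0.0543% higher. The values of all T-box genes with a probe set are plotted by array.

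**Figure D1:**
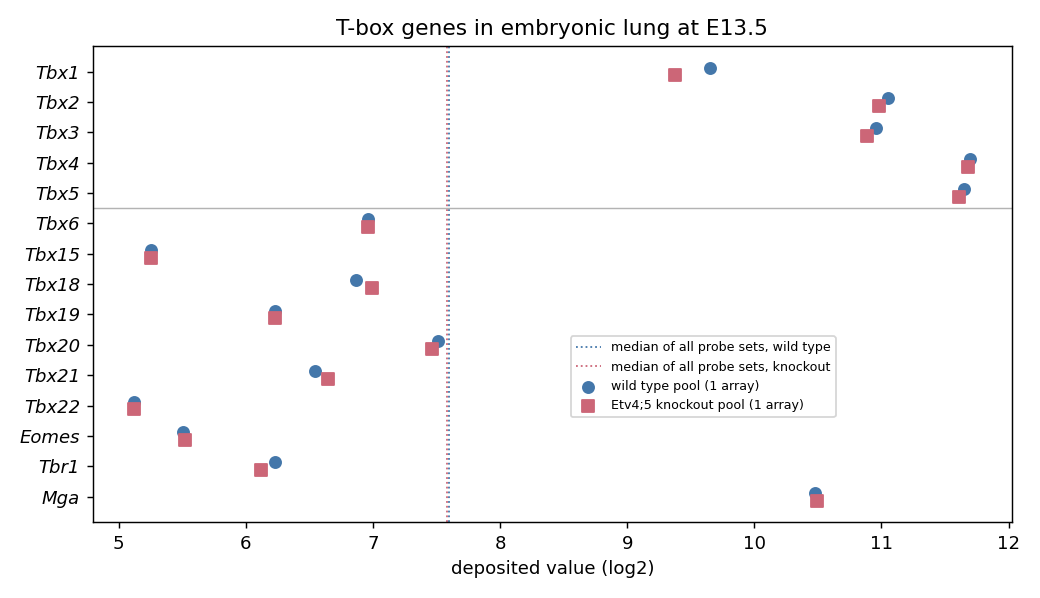
Deposited log2 values (horizontal axis) of the 5 members (above the line) and of the 10 other T-box genes with a value (below it), with a circle for the wild type pool and a square for the Etv4;5 knockout pool, 1 array each; dotted lines are the array medians, 7.60 and 7.58. The 5 members and Mga lie to the right of the medians and the other 9 to the left, and positions can be compared between the arrays for 1 gene but not between genes.

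Tbx1, known for its role in the pharyngeal arches and the outflow tract of the heart, had the largest difference of the 5. Its value was 9.65 in the wild type pool and 9.37 in the knockout pool. The difference of -0.28 made it 1.21-fold lower in knockout. Of the 11045 measured genes 145, Tbx1 included, had a difference this low or lower, and 282 (2.55%) had one at least as large in either direction. The call at 1.2-fold did not hold under other scalings of the arrays: the difference was -0.26 with equal medians, -0.25 after quantile normalization and -0.25 after loess, all just short of the threshold of -0.263. The sign was the same in each of these settings.

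RefSeq (GRCm38.p6) lists a pair of transcription start windows for Tbx1, on the minus strand of chromosome 16. The 250 bases before each start are shown because Tbx1 was the member past 1.2-fold, with each CpG, the dinucleotide at which mammalian DNA is methylated, in capitals. The first lies at chr16:18588900-18589149 and the second at chr16:18590672-18590921.
Tbx1 first window: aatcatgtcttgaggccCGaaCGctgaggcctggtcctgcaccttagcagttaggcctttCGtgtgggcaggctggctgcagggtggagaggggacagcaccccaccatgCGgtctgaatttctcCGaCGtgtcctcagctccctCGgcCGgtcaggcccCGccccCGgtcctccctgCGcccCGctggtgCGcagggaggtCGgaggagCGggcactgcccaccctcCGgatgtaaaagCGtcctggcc
Tbx1 second window: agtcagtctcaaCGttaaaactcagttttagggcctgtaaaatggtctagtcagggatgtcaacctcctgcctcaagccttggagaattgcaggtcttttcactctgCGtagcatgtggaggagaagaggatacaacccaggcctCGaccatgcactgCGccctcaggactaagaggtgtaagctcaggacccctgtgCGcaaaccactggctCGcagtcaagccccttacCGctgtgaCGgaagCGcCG
The first window held 17 CpGs at 67.2% GC and the second 10 CpGs at 54.4% GC, beside a median of 6 CpGs over 32851 windows of the table. At least 17 CpGs were found in 23.5% of those windows and at least 10 in 37.8%. The array value is a single number for the gene, so it does not say which start its transcripts used.

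Tbx2 and Tbx3, the closely related repressors, had nearly equal differences. Tbx2 went from 11.05 in wild type to 10.98 in knockout, a change of -0.072 (1.05-fold). Tbx3 stood at 10.96 and 10.89, a change of -0.068 (1.05-fold). Both lay well inside the range of measured genes: 19.6% of them had a lower difference than Tbx2 and 20.8% a lower one than Tbx3.

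Tbx4 and Tbx5, the pair required for bud outgrowth, differed least. Tbx4 went from 11.70 in wild type to 11.68 in knockout, which gives -0.021 (1.01-fold). Tbx5, which is also needed in the heart and the forelimb, was at 11.65 and 11.61, a difference of -0.0385 (1.03-fold). A difference at least as large in either direction was found in 57.5% of measured genes for Tbx4 and in 46.5% for Tbx5. From the largest decrease to the smallest the order was Tbx1, Tbx2, Tbx3, Tbx5, Tbx4. Tbx2 and Tbx3 were 0.0043 apart and Tbx4 and Tbx5 0.0178, and no spread is known against which such gaps could be judged. Tbx1 was 0.20 below Tbx2.

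**Figure D2:**
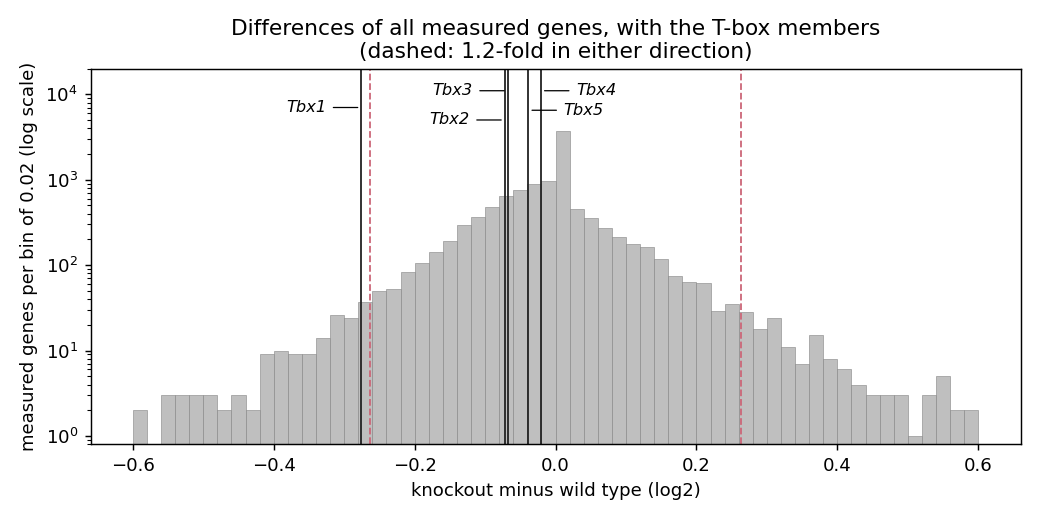
Number of measured genes (vertical axis, log scale) per bin of 0.02 in knockout minus wild type difference (horizontal axis, log2), with 34 genes outside the plotted range; solid lines mark the 5 members and dashed lines 1.2-fold in either direction. Tbx1 at -0.28 lies just past the lower dashed line, and the other 4 lie between -0.072 and -0.021, near the centre; the tall bar at 0 includes the genes with exactly equal values.

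The Tbx4 start lies on the plus strand of chromosome 11, and the 250 bases before it (chr11:85896515-85896764, GRCm38.p6, RefSeq) are shown for contrast, since Tbx4 had the smallest difference of the 5. Capitals again mark CpGs.
Tbx4 window: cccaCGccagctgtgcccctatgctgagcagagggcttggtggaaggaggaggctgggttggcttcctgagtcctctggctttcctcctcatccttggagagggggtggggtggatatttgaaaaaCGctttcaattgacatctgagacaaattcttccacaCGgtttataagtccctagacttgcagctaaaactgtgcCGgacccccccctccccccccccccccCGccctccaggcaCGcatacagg
It held 6 CpGs at 58.4% GC, and 50.4% of windows held at least as many. Of the members, Tbx1 and Tbx4 matched the table of start windows and Tbx2, Tbx3 and Tbx5 did not. All windows of 300 bases, from 250 before to 50 after a start, were searched on both strands for the T-box motif AGGTGTGA and its core GGTGTGA, the ETS motif CCGGAAGT and its core CCGGAA, and the Gli motif GACCACCCA, where each core is part of the longer motif. Over 32851 windows 1.28% held the T-box motif, 3.98% its core, 3.89% the ETS motif, 14.9% its core and 0.253% the Gli motif. The 3 windows of Tbx1 and Tbx4 held 0 matches, which says only that these letters are not in these windows.

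The members sit in the genome as 2 close pairs and a single gene. Tbx2 and Tbx4 are neighbours on chromosome 11 and Tbx3 and Tbx5 on chromosome 5, with 0 other genes with a value between the genes of a pair in the RefSeq gene order. Tbx1 is on chromosome 16. The targeted genes share these chromosomes in part: Etv5 is on chromosome 16, with 48 genes with a value between it and Tbx1, and Etv4 on chromosome 11, with 308 between it and Tbx4. Loss of the factors and any sequence difference carried along with the targeted loci cannot be told apart here for Tbx1, Tbx2 and Tbx4.

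The genes next to Tbx1 did not share the size of its difference. Gnb1l, the gene before it, stood at 9.28 in wild type and 9.23 in knockout (-0.051). Cldn5, a tight junction gene of endothelium on its other side, stood at 10.72 and 10.70 (-0.0125). Beside the other members, Bcas3 next to Tbx2 differed by -0.083, Brip1 next to Tbx4 by -0.024, and Med13l and Rbm19, which flank the pair of Tbx3 and Tbx5, were equal on both arrays. Taking 3 genes with a value on either side of each member gave 18 distinct neighbours outside the members, 15 of them measured. Of these 11 were lower, 2 higher and 2 equal, with a median of -0.0125 and a range from -0.11 to 0.13, and 0 passed 1.2-fold. Among all measured genes 47.0% were lower by any amount. At 1.2-fold 1.53% were lower and 1.39% higher, so 0 of 15 is near these shares.

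**Figure D3:**
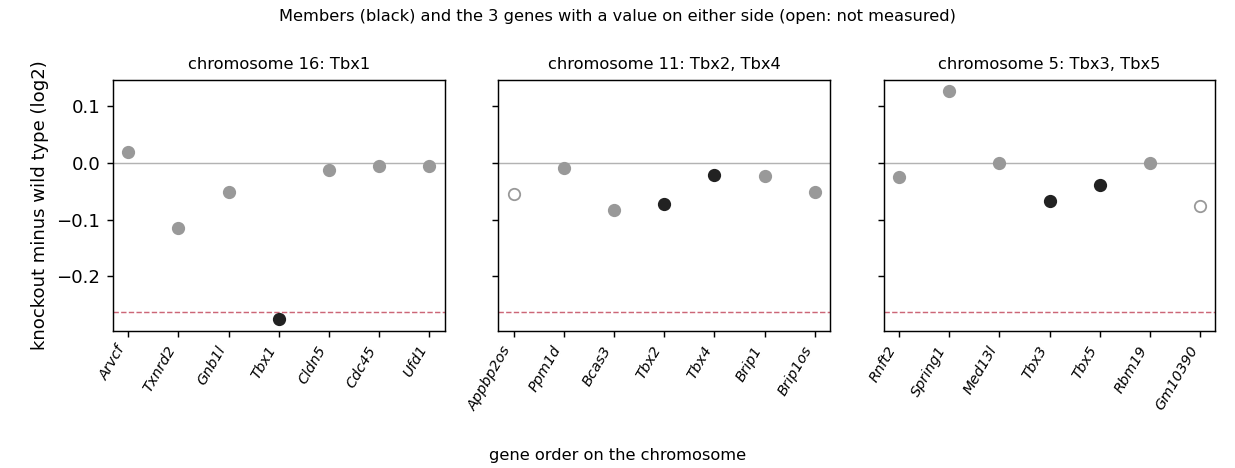
Knockout minus wild type differences (vertical axis, log2) of Tbx1, Tbx2 and Tbx3 and of the 3 genes with a value on either side of each, in gene order (horizontal axis, no distances); members are black, other genes grey, open points not measured, and the dashed line marks 1.2-fold lower. Tbx1 at -0.28 stands below all of its plotted neighbours, of which the lowest is Txnrd2 at -0.11, whereas Tbx2 and Tbx4 lie within the range of the measured genes around them, and Tbx3 and Tbx5, at -0.068 and -0.0385, lie slightly below theirs, of which the lowest is Rnft2 at -0.025.

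Of 12 other T-box genes 10 had a value, and 1 of these was measured. Mga, a large T-box protein that also binds Max, had 10.48 in wild type and 10.49 in knockout (0.0145). The other 9 lay between 5.12 and 7.51, under the array medians, so their small differences rest on dim signals. Tbx6, Tbx15, Tbx19 and Tbx22 were equal on both arrays. Tbx18, a factor of mesothelium and of ureter mesenchyme, stood at 6.87 and 6.99 (0.12), Tbx21, a factor of T helper cells, at 6.54 and 6.65 (0.10) and Eomes at 5.50 and 5.52 (0.017). Tbr1, known from the cortex, stood at 6.23 and 6.12 (-0.11) and Tbx20, a heart factor, at 7.51 and 7.46 (-0.049). None of these 10 genes passed 1.2-fold.

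Genes tied to Tbx4 and Tbx5 in the lung differed in both directions, and 5 of the 7 by more than Tbx4 and Tbx5 themselves. All 7 listed genes were measured, 2 higher, 4 lower and 1 equal. At 1.2-fold 1 was called higher and 3 lower, beside 1.39% and 1.53% of all measured genes. Fgf10, whose expression depends on both factors, went from 9.84 in wild type to 10.24 in knockout, higher by 0.40 (1.32-fold). Wnt2 and Wnt2b, the mesenchymal Wnt ligands that specify the lung, differed by -0.31 (10.35 to 10.04) and -0.32 (8.87 to 8.56). Sox9, a factor of distal epithelium and of tracheal cartilage, differed by -0.32 (10.84 to 10.53), and the cartilage collagen gene Col2a1 by -0.19 (8.69 to 8.50). Lef1, a transcription factor of the Wnt pathway, differed by 0.0017, and Bmp4, a growth factor gene of distal tips and mesenchyme, was at 11.63 on both arrays. The list's median was -0.19, and 0.00 with the filter at the 75th percentile. These genes have other regulators too, and the part of T-box factors in their differences was not tested.

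Genes known to be repressed by Tbx2 and Tbx3 went both ways. Of 6 listed genes 5 had a value and 3 were measured, 1 higher and 2 lower, with a median of -0.016 whose sign was positive under each of the 3 other scalings. Shisa3, which encodes a Wnt antagonist, went from 8.10 in wild type to 7.82 in knockout (-0.28, 1.22-fold lower). Ccn4, a secreted matrix protein gene, was at 7.92 and 8.13 (0.21), and Cdkn1b, a cell cycle inhibitor, at 10.14 and 10.12 (-0.016), with a dimmer second probe set equal on both arrays. The Wnt antagonist gene Frzb and the cytokine gene Il33 were under the array medians. The inhibitor gene Cdkn1a was not analysed here, because its probe set carries several symbols.

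The start windows of these gene groups were searched in the same way. Of 31 windows of T-box genes and of the genes tied to them or repressed by them, 1 held the T-box motif, and it belonged to Cdkn1a. The match begins at base 14 of the transcript, on the plus strand of chromosome 17 (chr17:29093772-29093799, GRCm38.p6, RefSeq), and is shown in capitals because it is the single full T-box match in the set.
Cdkn1a start site: agcagccgagAGGTGTGAgccgccgcgg
The windows of Fgf10, Wnt2, Wnt2b and Shisa3, the genes of these groups past 1.2-fold that have a window, held none of the motifs. The window of Bmp4 held the ETS core. A match or its absence in so short a window is a description of the letters only.

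**Figure D4:**
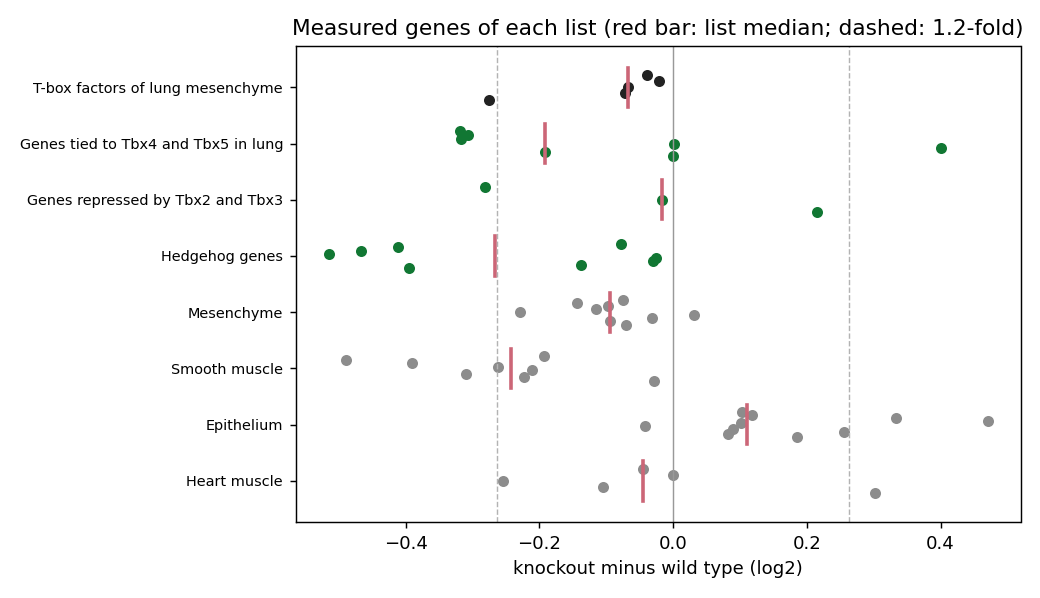
Knockout minus wild type differences (horizontal axis, log2) of the measured genes of 8 lists (vertical axis), 1 point per gene, with black for the T-box members, green for linked genes and grey for cell type markers; red bars are list medians, the vertical spread within a list has no meaning, and dashed lines mark 1.2-fold. The T-box median of -0.068 lies between those of mesenchyme at -0.095 and heart muscle at -0.045, with smooth muscle lower at -0.24 and epithelium higher at 0.11.

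Genes of the Hedgehog pathway, by which the epithelium maintains Tbx2 and Tbx3 in the mesenchyme, were lower, and Shh and the response genes by more than Tbx2 and Tbx3 were. All 8 measured members of 9 listed were lower, beside 47.0% of all measured genes, with a median of -0.27. Of these 4 were at least 1.2-fold lower, beside 1.53% of all measured genes. Shh, the ligand, differed by -0.41, and Ptch1, Hhip and Foxf1, which respond to it, by -0.47, -0.52 and -0.40. Gli1, also a response gene, differed by -0.14, short of 1.2-fold. Beside these, Tbx2 differed by -0.072 and Tbx3 by -0.068, between the receptor component Smo (-0.078) and Gli2 and Gli3 (-0.030 and -0.026).

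Cell type markers differed between the pools as well, and in whole lung RNA fewer cells of a type and less RNA per cell cannot be told apart. Mesenchyme markers were lower in 8 of 9 measured genes of 10 listed, with a median of -0.095, the lowest being Meox2 at -0.23 and Tcf21 at -0.14. The summed level of all 10, on the linear scale, was 28257 in wild type and 26692 in knockout, a ratio of 0.945. The ratio was 0.959 for the 5 T-box members (11453 and 10987) and 0.985 over all measured genes. The brightest genes weigh most in such sums, here Vim, at 13.58 in wild type. Smooth muscle markers were lower in 8 of 8 measured genes (median -0.24). Over all 9 with a value the ratio was 0.900 (17787 and 16015). In this sum Acta2, at 13.06 in wild type, weighed most, and it differed by -0.029. Cnn1, Myocd and Synpo2 passed 1.2-fold at -0.31, -0.39 and -0.49. Among all measured genes 47.0% were lower by any amount and 1.53% by at least 1.2-fold.

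The listed epithelial markers went the other way, including in relation to Tbx1. Of 10 measured genes 9 were higher and 1 was lower, and their median was 0.11, with a ratio of 1.12 (15577 and 17376). Elf3 counted through the knockout array alone (7.50 to 7.75), and of the 9 markers at or above both array medians 8 were higher, with a median of 0.10. Krt8 and Krt18 passed 1.2-fold at 0.33 and 0.47, and Nkx2-1, the factor that defines lung epithelium, was at 10.58 and 10.70. Among all measured genes 25.7% were higher by any amount and 1.39% by at least 1.2-fold. Tbx1, at -0.28, thus lay below all 10 of these markers, of which the lowest was Foxa1 at -0.043. Some genes of other lists that are made in epithelium were not higher. Shh differed by -0.41, Sox9, also a cartilage factor, by -0.32 and Etv5, itself targeted, by -0.23. Bmp4, a gene of distal tips and mesenchyme, was at 11.63 on both arrays. These genes were not chosen as markers of epithelium. Whether Tbx1 RNA came from epithelium or another cell type in these pools was not tested.

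Heart muscle, which also expresses Tbx5, Tbx2 and Tbx20, was checked as another possible source of RNA. Of 10 markers 5 were under both array medians, Myh6, Myl2, Nppa, Tnni3 and Actn2, and 5 were measured, with a median of -0.045. Myl4 went from 9.44 to 9.33 (-0.10), Myl7 from 8.50 to 8.25 (-0.25) and Tnnt2 from 8.58 to 8.54 (-0.045), and Nkx2-5 was at 8.20 on both arrays. Myh7, at 0.30 (7.34 to 7.65), counted as measured through the knockout array alone, where it was the higher. The 4 markers at or above both array medians had a median of -0.075. The summed level of all 10, dim ones included, was 2541 in wild type and 2461 in knockout, a ratio of 0.968. Skeletal muscle had 1 measured marker of 6, Acta1, equal on both arrays, while Myog stood at 6.41 and 6.73 (0.32), under the medians. Of 6 measured cartilage markers 4 were equal, with a median of 0.00. Cnmd, at -0.41 (7.78 to 7.37), counted as measured through the wild type array alone, where it was the higher. Mesothelium, with 5 measured markers, had a median of 0.052, with Bnc1 at 0.20 and Upk3b at -0.086. Endothelium, with 8, had a median of -0.014, with Pecam1 at -0.085 and Tek at -0.079, and its sign was positive with equal medians and after loess. Beside 47.0% of all measured genes, blood markers were lower in 3 of 3 (median -0.25), with Slc4a1 at -0.26 and Hba-x at -0.25. Their part in the T-box values was not tested.

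Genes were also ranked by how near their difference was to that of each member, over the 2 arrays. For Tbx1 the nearest measured genes were the chemokine gene Ccl7 at -0.28 and the protein kinase A subunit gene Prkar2b at -0.27. For Tbx2 they were Cul1 and Lgals1, for Tbx3 Atf2 and Prr5, for Tbx4 Nvl and Riok2, and for Tbx5 Trp53bp2 and Inpp5f, within 0.00002 of the member. With 2 arrays such likeness separates few genes: 32 other measured genes lay within 0.01 of Tbx1, 610 of Tbx2, 672 of Tbx3, 937 of Tbx4 and 822 of Tbx5.

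**Figure D5:**
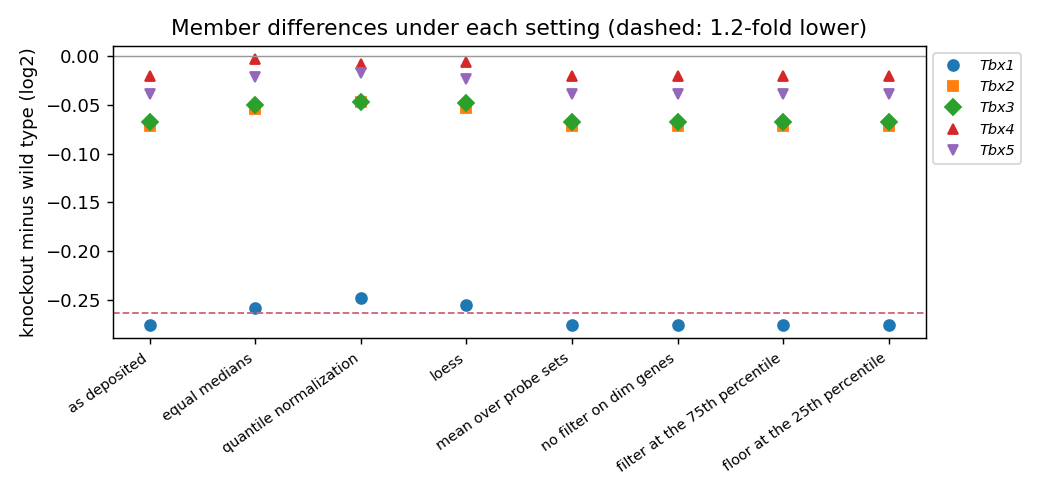
Knockout minus wild type differences (vertical axis, log2) of the 5 members as deposited and under 7 other settings (horizontal axis), with the dashed line at 1.2-fold lower. All points lie below 0. Tbx1 lies above the dashed line with equal medians, quantile normalization and loess and below it in the other settings. The order of Tbx1, the pair Tbx2 and Tbx3, then Tbx5 and Tbx4 is the same in every setting. Only quantile normalization and loess could change that order. Equal medians moves all genes alike, and the other settings leave the members' values as deposited.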

How the data were processed

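RNA of 3 samples per group was pooled before labelling with biotin and hybridisation to Affymetrix arrays, per the labels' protocols and the design text. The values deposited by the authors were read as log2 from their range. How probes were summarised and normalized, and the log base, are not given in the sources used here, and the number of arrays limits the precision. Of 35557 probe sets 21789 had 1 gene symbol in the platform annotation, 1621 several and 12147 none. Values were used as deposited. With 1 array per group, genes were counted past 1.2-fold and lists were described by counts and medians, with no p-value. The members, the gene lists and the threshold were chosen with earlier results of these data known. Named were all T-box genes with a value, Etv4 and Etv5, list genes past 1.2-fold or otherwise the 2 with the largest difference, adjacent genes, and the 2 genes nearest in difference. Some further list genes were named after their values were seen. A RefSeq gene table (GRCm38.p6), matched by symbol for 19914 of 19938 genes, served for chromosomes and gene order, and start windows came from RefSeq. Alternatives were equal medians, quantile normalization, loess (span 0.3), the mean over probe sets, a floor at the 25th percentile, no filter, a stricter filter (75th percentile) and thresholds of 1.5-fold and 2-fold. Fold counts were tested on known differences added to the wild type values, and the other scalings on a constant shift. The remaining steps were not tested in this way. Python 3.11.15, numpy 2.4.6, pandas 2.3.3, statsmodels 0.14.6 and matplotlib 3.10.9 were used.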

Additional observations from a re-analysis of the deposited data

How the results depend on the processing

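All 5 members were lower in the knockout pool under each of the 7 alternative settings. The mean over probe sets, the floor and the filter settings could not change these differences. Each member had 1 probe set, with values above the filters and the floor. Only equal medians, quantile normalization and loess could change them. Tbx1 ranged between -0.28 and -0.25, Tbx2 between -0.072 and -0.047 and Tbx3 between -0.068 and -0.047. Tbx5 ranged between -0.0385 and -0.0175 and Tbx4 between -0.021 and -0.0033. Equal medians, quantile normalization and loess put Tbx1 at -0.258, -0.248 and -0.255, so that 0 members were called under each of these, and also at 1.5-fold and 2-fold. Equal medians shifted the median of measured genes by 0.017, close to the whole difference of Tbx4. The 169 lower and 154 higher measured genes became 137 and 181 with equal medians, 137 and 174 after quantile normalization and 150 and 151 after loess, so which direction held more calls depended on the scaling. They became 18 and 19 at 1.5-fold, 4 and 6 at 2-fold, 266 and 440 with no filter, and 65 and 44 with the filter at the 75th percentile, where the number of genes tested or the threshold itself differs. Equal medians gave medians of 0.0010 for genes repressed by Tbx2 and Tbx3 and 0.0032 for endothelium, loess 0.0059 and 0.00060, and quantile normalization 0.0086 for the first. Genes tied to Tbx4 and Tbx5 had a median of 0.00 with the filter at the 75th percentile. Requiring the median on both arrays, added after the data were seen, left the members as they were and gave 147 and 120 genes. No array could be left out. No paired analysis was possible because each group had 1 array.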
